A study of Homo sapiens with 105 samples.

Results

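Membrane vesicles (MVs) are small particles that Gram-positive bacteria shed from their envelope, and they carry proteins, lipids, nucleic acids and small molecules into the gut lumen. The libraries described here come from Caco-2 cells, an epithelial line from a human colon adenocarcinoma that can form an enterocyte-like layer, after incubation with MVs of Lacticaseibacillus casei DSM 20011 or with PBS. The members were chosen by their titles: L. casei MVs at 10 h (4 libraries) and 24 h (3 libraries), and PBS at 10 h and 24 h (4 libraries each), 15 libraries in all. The whole series held 66 libraries outside the sequencing lanes set aside below and 39 within them. Each MV culture received 1.5e+11 vesicles in fresh medium, and the PBS cultures received the carrier. In comparisons with other vesicles, cells received 7.5e+09 MVs of Enterococcus faecalis DSM 20478 or 6.0e+09 outer membrane vesicles (OMVs) of Proteus mirabilis DSM 4479, so vesicle numbers differ between species. L. casei MV-RNA (100 ng) was transfected and had a non-targeting siRNA (100 ng) as its control. The series also held cells given P. mirabilis lipopolysaccharide (LPS), either in the medium or by transfection. Further cells were transfected with less siRNA (2 or 5 ng), with OMV-RNA of P. mirabilis (2 ng) or with MV-RNA of E. faecalis (5 ng). Libraries of these treatments are among the 66 that were fitted together, so they also shaped the estimate of spread. All groups share one cell line, and the labels do not say whether replicates came from separate cultures or vesicle preparations, so each p-value reflects only how far these libraries spread, which may be technical.

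Of the 15 libraries, 9 entered the main fit (L. casei MVs at 10 h, replicates 2, 3 and 4, and replicates 2 and 3 of the other groups), with 2476570 to 7144185 counts each. The other 6 came from sequencing lanes in which the labelled time is doubtful, and were left aside. Over all tested genes except CYP1A1, 9 of the 9 retained libraries lay nearest to the mean profile of their own labelled time, and 0 of the 6 others did. The mean profiles were built from main-fit libraries alone, without the library being placed. The lanes were set aside for the same doubt about time, so this split describes that choice and is no separate test of it. Epithelial markers summed to 8156 to 9995 CPM (counts scaled to 1e+06 per library) with MVs and 8133 to 9426 CPM with PBS. Leukocyte markers summed to 18.6 to 184 CPM with MVs and 18.8 to 190 CPM with PBS, following replicate number in both, and PTPRC, MS4A1 and FCGR3A were at 0. CDH5, KDR and TEK of the endothelial list and COL1A2, DCN and FAP of the fibroblast list were also at 0. These are bulk libraries, in which fewer cells of a type and less RNA per cell cannot be told apart.

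The aryl hydrocarbon receptor (AhR) is a ligand-activated transcription factor of the cytoplasm that binds planar aromatic compounds, among them tryptophan metabolites made by gut bacteria. With a ligand it leaves its chaperones, pairs with ARNT in the nucleus and binds DNA at a short core motif, raising genes of xenobiotic metabolism. CYP1A1, a cytochrome P450 that oxidises such compounds, is its best-known target, and in intestinal epithelium it also breaks down AhR ligands.

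CYP1A1 rose after L. casei MVs at both times, and it was the single gene of 18775 tested that passed the test on both times together (0.00533% of genes). The gene (ENSG00000140465.15) lies on the minus strand of chromosome 15 from 74719542 to 74725536 (GRCh38). The core motif GCGTG was counted on both strands in the 2000 bases before its RefSeq start (position 74725528). There were 11 matches there, against a median of 2 over 27305 genes, and 0.7% of genes had as many or more. A match was found in 77.8% of these windows. The stretch of 300 bases with the most matches, shown because CYP1A1 is the gene the comparison turns on, lay 961 to 1260 bases before the start (chr15:74726489-74726788, minus strand, RefSeq start on GRCh38.p14), with the 5 matches on either strand in capitals.

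CYP1A1 upstream: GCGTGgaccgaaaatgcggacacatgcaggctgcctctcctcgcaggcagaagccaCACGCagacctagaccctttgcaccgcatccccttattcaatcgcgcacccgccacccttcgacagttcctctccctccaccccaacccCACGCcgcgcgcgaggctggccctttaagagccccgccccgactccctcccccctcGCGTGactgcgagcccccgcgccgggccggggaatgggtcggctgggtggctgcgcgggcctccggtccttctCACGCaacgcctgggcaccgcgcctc

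A match is a run of letters and not an occupied site, since binding was not measured here. In the same upstream window RILP, another gene that passed the test at 10 h, held 2 matches, CDK19 1 and PRSS3 0.

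At 10 h, CYP1A1 stood at 277, 211 and 122 CPM in the 3 libraries with L. casei MVs and at 68.4 and 82.0 CPM with PBS. At 24 h it stood at 40.4 and 68.2 CPM with MVs and at 11.6 and 12.8 CPM with PBS. The MV and PBS libraries did not overlap at either time, and the level with PBS was itself lower at 24 h than at 10 h.

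The log2 fold change, with its standard error, was 1.84 ± 0.18 over both times (3.59-fold, edgeR quasi-likelihood test, adjusted p = 1.32e-07). It was 1.52 ± 0.20 at 10 h (2.87-fold, adjusted p = 0.000172) and 2.17 ± 0.31 at 24 h (4.49-fold, adjusted p = 0.000654). The change at 24 h exceeded that at 10 h by 0.64 ± 0.38 on the log2 scale, which did not pass (unadjusted p = 0.101, adjusted p = 1). Without the replicate block, CYP1A1 still passed over both times (adjusted p = 0.00129) but not at 10 h (adjusted p = 1.00) or 24 h (adjusted p = 0.140). CYP1A1 passed over both times without each of the 9 libraries in turn, while the number of genes past the test was 7 without MV 24 h replicate 2, 8 without PBS 24 h replicate 3 and 2 without MV 10 h replicate 4 or either PBS 10 h library. With the 4 groups fitted alone, 4 other genes passed and the log2 fold change of CYP1A1 was 1.92 with an adjusted p of 0.241.

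The other treatments put this level in context. At 10 h, the 29 libraries of the 11 other groups held 60.8 to 154 CPM of CYP1A1 with a median of 89.2 CPM, so the lowest MV library (122 CPM) lay inside their range and the other two above it. At 24 h, the 24 libraries of the 11 other groups held 4.91 to 16.3 CPM, and both MV libraries lay above all of them. At 48 h, outside the comparison made here, L. casei MVs gave 39.2 and 41.1 CPM and the 6 libraries of the 3 other groups 8.18 to 14.4 CPM. In the doubtful lanes the order was not kept: PBS labelled 10 h held 13.6 and 117 CPM, PBS labelled 24 h 161 and 141 CPM, and L. casei MVs 24.6 CPM at 10 h and 8.78 CPM at 24 h. With the libraries of all lanes in the fit, the log2 fold change of CYP1A1 was 0.09 over both times (0.27 with the replicate block), and 0 genes passed at either time or together.

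**Figure D1:**
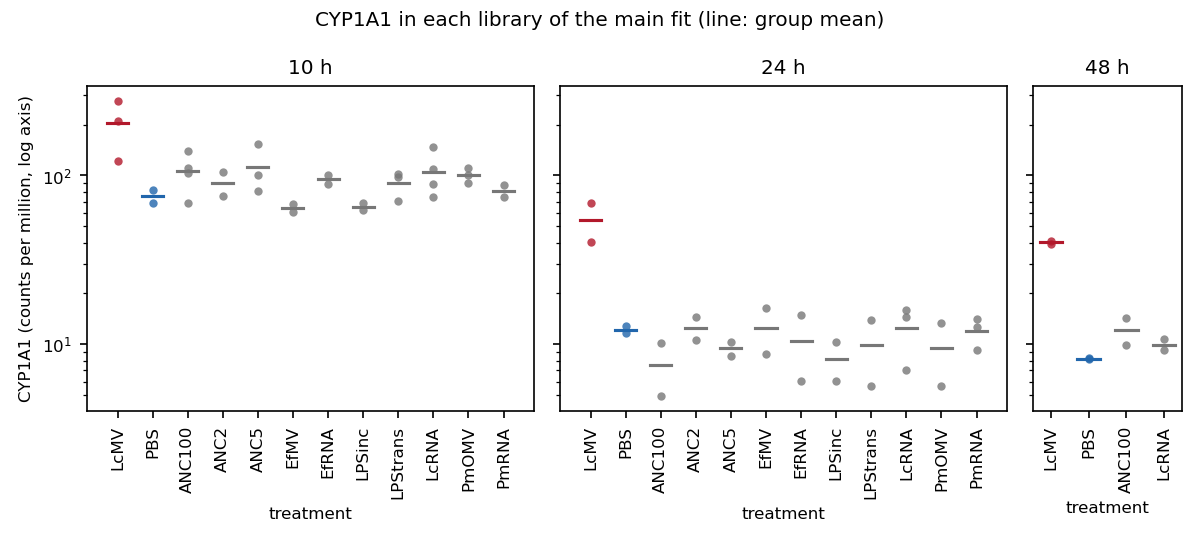
CYP1A1 in CPM (log axis) in each library of the main fit, by treatment and time, with L. casei MVs (LcMV) in red, PBS in blue, all other treatments in grey and a line at each group mean. ANC is siRNA, RNA is transfected vesicle RNA and LPS was added to the medium (inc) or transfected (trans); the MV libraries lie above all others at 24 and 48 h, and at 10 h 1 of the 3 lies among them.

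A list of 18 AhR targets held 14 tested genes. CYP1A1 passed the test, 13 of the 14 were higher with MVs over both times, and the median log2 fold change was 0.15, against a median of -0.0015 over all genes tested, of which 49.5% were higher. CYP1B1, a second AhR-inducible P450, came nearest. It stood at 4.08, 4.64 and 1.53 CPM with MVs and 0.839 and 0.827 CPM with PBS at 10 h, and at 1.68 and 1.55 CPM with MVs and 0.784 and 1.20 CPM with PBS at 24 h. The levels did not overlap at either time, but its log2 fold change was 1.43 ± 0.37 over both times (adjusted p = 0.121) and 2.14 ± 0.49 at 10 h (adjusted p = 0.0662). With the replicate number as a block within each time both passed (adjusted p = 0.0398 and 0.0165). CYP1B1 overlaps RMDN2, RMDN2-AS1 and CYP1B1-AS1, and reads of overlapping genes cannot be told apart without strand.

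The other targets did not pass. ABCG2, an efflux pump, changed by 0.48 ± 0.17 (adjusted p = 0.448) and UGT1A6, a glucuronosyltransferase that shares exons with its family, by 0.45 ± 0.24 (adjusted p = 0.638). STC2, a secreted glycoprotein, changed by 0.32 ± 0.14 and TIPARP, an ADP-ribosyltransferase that limits the receptor, by 0.22 ± 0.10 (adjusted p = 0.552 and 0.564). SLC7A5 (0.18), CYP2S1 (0.13), ALDH3A1 (0.10), NQO1 (0.10), NFE2L2 (0.06), EREG (0.03) and SLC3A2 (0.03) lay nearer to 0, and LRAT lay at -0.52. AHRR, the receptor's repressor, was too low to test, with 10 counts in 3 MV libraries and 3 counts in 2 PBS libraries at 10 h (ratio of levels 1.96, 95% exact interval 0.504 to 11.1, counting error only). CYP1A2, IDO1 and SERPINB2 were also below the filter.

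The genes of the receptor complex differed little. AHR itself changed by 0.07 ± 0.07 over both times, at 67.7, 75.2 and 80.1 CPM with MVs and 70.5 and 68.9 CPM with PBS at 10 h. ARNT, its partner, changed by -0.34 ± 0.11 at 10 h (adjusted p = 0.345) and 0.06 ± 0.10 at 24 h. PTGES3 (0.13), HSP90AA1 (0.08) and HSP90AB1 (0.08), which hold the unliganded receptor, and the coactivators NCOA1 (-0.10) and NCOA2 (-0.17) did not pass. ARNT2 was not tested. CDK8 and CDK19, interchangeable kinases of the Mediator complex on this list, are described next.

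At 10 h alone, 3 genes rose and 4 fell (0.0373% of genes, 0.016% upward and 0.0213% downward), CYP1A1 and 6 others, of which 5 are described here, and 1400 genes had an unadjusted p under 0.05. RILP (chromosome 17, 1646145 to 1649866) encodes a Rab7 effector that links late endosomes and lysosomes to the dynein motor. It stood at 22.7, 12.6 and 9.96 CPM with MVs and 7.14 and 6.48 CPM with PBS. It rose by 1.16 ± 0.23 (2.24-fold, adjusted p = 0.0116), and at 24 h it differed by 0.20 ± 0.23. The levels at 10 h did not overlap, and replicate 2 was the highest.

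PRSS3 (chromosome 9, 33750679 to 33799231) encodes mesotrypsin, a trypsin that resists the common trypsin inhibitors. It stood at 50.7, 36.6 and 40.4 CPM with MVs and 29.8 and 27.7 CPM with PBS at 10 h, without overlap. It rose by 0.55 ± 0.12 (1.46-fold, adjusted p = 0.0464) and differed by 0.17 ± 0.12 at 24 h. Reads of the near-identical trypsinogen copies may be shared with it, so its level is uncertain.

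CDK19 (chromosome 6, 110609978 to 110815958) fell by 0.65 on the log2 scale (SE 0.12, adjusted p = 0.00739). It stood at 23.1, 27.0 and 27.6 CPM with MVs and 41.97 and 40.38 CPM with PBS at 10 h. At 24 h it stood at 41.05 and 40.90 CPM with MVs and 39.38 and 42.97 CPM with PBS, so the MV libraries of 10 h were the low ones. Its paralog CDK8 differed by 0.03 ± 0.07 over both times, and of the 7 genes of the Mediator kinase list CDK19 alone passed, at 10 h.

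SLC38A3 (chromosome 3, 50205246 to 50221486), a carrier that moves glutamine and histidine, stood at 12.6, 7.12 and 8.81 CPM with MVs and 23.1 and 14.5 CPM with PBS at 10 h. It fell by 0.91 on the log2 scale (SE 0.18, adjusted p = 0.0119) and differed by -0.09 ± 0.15 at 24 h. CRAT (chromosome 9, 129094142 to 129111189), the mitochondrial and peroxisomal carnitine acetyltransferase, stood at 27.6, 19.9 and 20.7 CPM with MVs and 48.7 and 27.4 CPM with PBS, which overlap, while both replicate pairs were lower with MVs. It fell by 0.61 (SE 0.13, adjusted p = 0.0464) and differed by -0.09 ± 0.12 at 24 h.

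For these 5 genes the change at 24 h was smaller than at 10 h, yet the difference between the times passed for none of them (adjusted p = 1 for each, unadjusted p from 0.000257 for CDK19 to 0.0290 for PRSS3). They were chosen because they passed at 10 h, which favours a larger change there. The smaller change at 24 h and these unadjusted p are therefore no separate support for a difference between the times. Over all 18775 genes the difference between the times gave 0 calls with edgeR, 0 with DESeq2 and 0 with voom, and 668 genes had an unadjusted p under 0.05 with edgeR. The 10 h count fell to 1 gene without MV replicate 2, to 0 without PBS replicate 2 and to 1 without PBS replicate 3. It was 0 without the replicate block. When 1 of the 5 libraries of 10 h was left out in turn, PRSS3 and CRAT passed in 0 of 5 fits with edgeR (adjusted p up to 0.413 for each), SLC38A3 in 1, and RILP and CDK19 in 2 each. The direction at 10 h was kept in these fits for all 5 genes.

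**Figure D2:**
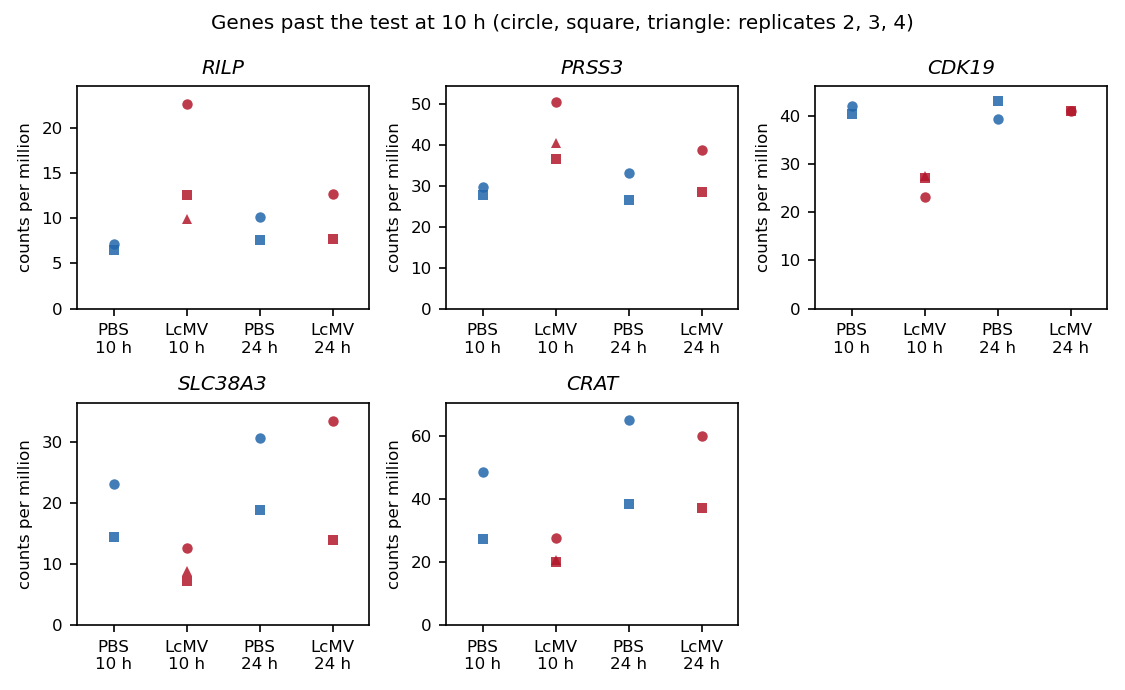
CPM of 5 genes besides CYP1A1 past the test at 10 h, in each PBS (blue) and L. casei MV (red) library of the main fit, with replicates 2, 3 and 4 as circles, squares and triangles. MV and PBS libraries are apart at 10 h for RILP, PRSS3, CDK19 and SLC38A3, overlap for CRAT, and lie closer at 24 h, which choosing genes at 10 h favours.

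At 24 h alone, CYP1A1 was the 1 gene past the test (0.00533% of genes), and 741 genes had an unadjusted p under 0.05. The count was 0 without MV replicate 3. Without PBS replicate 2 it was 2, CYP1A1 no longer among them (adjusted p = 0.124), and without PBS replicate 3 it was 2, CYP1A1 included.

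When the replicate number was fitted as a block within each time, more genes passed: 84 rose and 88 fell over both times together (0.916% of genes, 0.447% upward and 0.469% downward), 44 rose and 66 fell at 10 h (0.586%, with 0.234% and 0.352%), and CYP1A1 alone rose at 24 h. All 7 genes of the 10 h comparison were among the 110. Of the 172 genes, 159 had an unadjusted p under 0.05 in the main fit, as had 1524 of all 18775 genes. Of the 172, 77 also passed with terms for flow cell and lane and 19 passed with DESeq2. In all 4 replicate pairs 157 moved one way, and the share of all genes that did so is not given. These counts come from the same libraries that chose the 172 genes, which favours them, so they are no separate support. The count was 34 to 181 when 1 library was left out, and lowest without PBS 24 h replicate 2. Most changes were small, with a median of 0.23 among genes that rose and -0.30 among genes that fell, and 127 of the 172 were larger at 10 h, as were 54.4% of all genes. The genes named in the next 3 paragraphs were chosen after their values were seen, and each adjusted p there comes from the fit with the block within each time unless the main fit is named.

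Among genes that rose were C3 (0.62 ± 0.12, adjusted p = 0.00716), the central complement component, BIRC3 (0.85 ± 0.19, adjusted p = 0.00801), an inhibitor of apoptosis induced by NF-kappaB, and NOS2 (0.48 ± 0.08, adjusted p = 0.000156), the inducible nitric oxide synthase. C3 stood at 97.8, 112 and 129 CPM with MVs and 62.5 and 80.8 CPM with PBS at 10 h, and at 77.7 and 117 CPM with MVs and 52.2 and 67.4 CPM with PBS at 24 h. The levels did not overlap at either time. NOS2 stood at 64.8, 52.7 and 44.8 CPM with MVs and 48.3 and 40.2 CPM with PBS at 10 h, and at 29.3 and 39.7 CPM against 20.9 and 25.6 CPM at 24 h. In the main fit these genes had adjusted p = 0.0766 (C3), 0.0795 (BIRC3) and 0.114 (NOS2).

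GSTP1, a glutathione transferase that conjugates electrophiles, rose by 0.21 ± 0.04 (adjusted p = 0.00344). Another glutathione transferase, GSTA2, went the other way, at -0.30 ± 0.08 (adjusted p = 0.0277). In the main fit the adjusted p was 0.0766 for GSTP1 and 0.538 for GSTA2.

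Among genes that fell were SESN3 (-0.56 ± 0.08, adjusted p = 2.26e-06), a sestrin that restrains mTORC1, CLDN3 (-0.51 ± 0.11, adjusted p = 0.00322), a tight junction claudin, and the carrier SLC7A7 (-0.26 ± 0.04, adjusted p = 0.000217). SESN3 stood at 22.5, 30.2 and 27.0 CPM with MVs and 51.6 and 48.1 CPM with PBS at 10 h, without overlap. At 24 h SESN3 stood at 87.0 and 54.0 CPM against 97.3 and 73.6 CPM. The receptor kinases ERBB2 (-0.28, adjusted p = 0.00026) and ERBB3 (-0.19, adjusted p = 0.0136) and the clotting factor F7 (-0.41, adjusted p = 0.00397) also fell. In the main fit none of these 6 passed, with adjusted p of 0.283 for SESN3, 0.0795 for CLDN3, 0.346 for SLC7A7, 0.114 for ERBB2, 0.258 for ERBB3 and 0.290 for F7.

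**Figure D3:**
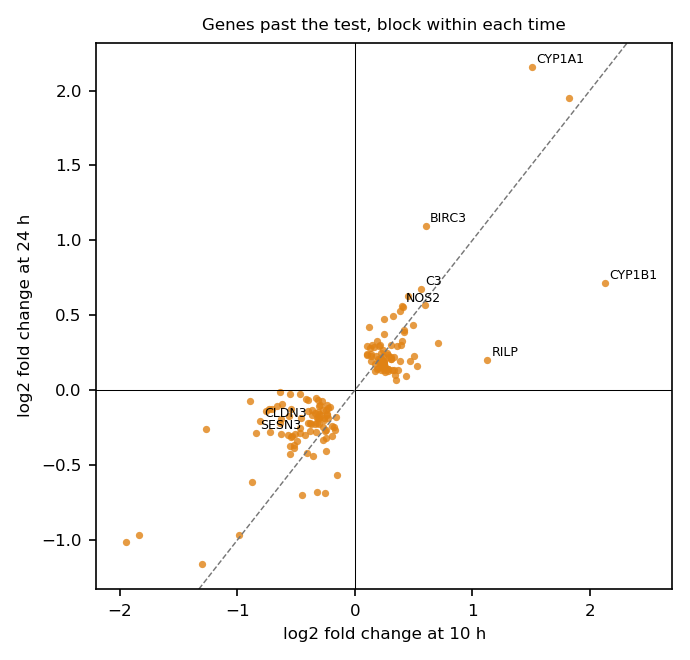
Log2 fold change of L. casei MVs over PBS at 10 h (horizontal) and 24 h (vertical) for the 172 genes past the test over both times with the replicate block within each time; the dashed line marks equal changes. All points fall where both changes have one sign, which choosing genes on both times together favours, and 127 are larger in size at 10 h.

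The remaining gene lists held few calls. No member of any of them passed over both times in the main fit. In the list of NF-kappaB subunits and feedback genes, 18 of 20 were higher, with a median of 0.17 and a range of -0.17 to 0.86, where 49.5% of all genes were higher. With the block within each time 2 of the 20 rose, BIRC3 and C3, beside 0.447% of all genes. The transcription factor subunits NFKB2 (0.38 ± 0.21, adjusted p = 0.664) and RELB (0.33 ± 0.16, adjusted p = 0.608) and the feedback genes TNFAIP3 (0.20), SOD2 (0.16) and NFKBIA (0.14) did not pass in either fit. Of 21 genes of the MYC, immediate early and ERK feedback list 16 were higher, with a median of 0.18, and MYC itself changed by 0.52 ± 0.15 (adjusted p = 0.255). MYC and its antisense neighbour CASC11 overlap, and without strand their reads cannot be told apart.

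Of 28 chemokines and cytokines 15 were tested, 12 were higher (median 0.15) and 0 passed with edgeR over both times in either fit. CXCL5, a neutrophil-attracting chemokine, had 19 counts in the 3 MV libraries and 0 in the 2 PBS libraries at 10 h. Set against a floor of 3 counts for the PBS group, its level was 3.72-fold higher. This takes the 19 counts as exact, so it is no lower bound. It stood at 0.388, 2.15 and 0.766 CPM with MVs, with an adjusted p of 0.205, or 0.0304 with the block within each time. CXCL8, the main neutrophil chemokine of epithelium, had 11 counts with MVs and 4 with PBS at 10 h and was not tested. CCL20, which draws dendritic cells and lymphocytes, had 17 and 6 counts at 10 h and 11 and 3 at 24 h (log2 fold change 1.11 ± 0.60 over both times, adjusted p = 0.656). CXCL10 had 5 and 2 counts at 10 h and 5 and 1 at 24 h. CCL2, CCL15, CCL25, CXCL11, IL1B and IL6 had at most 7 counts in any group.

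Among 30 pattern recognition receptors and adaptors 16 were tested and 0 passed with edgeR in either fit. TLR7, an RNA sensor, had 46 counts with MVs and 14 with PBS at 10 h and 25 and 14 at 24 h (0.81 ± 0.41, adjusted p = 0.633). NOD2 had 12 and 6 counts, NLRP1 3 and 6 and TLR3 5 and 4 at 10 h, all below the filter. In that order, the ratios of levels were 1.17 (95% exact interval 0.408 to 3.82), 0.29 (0.0475 to 1.38) and 0.73 (0.158 to 3.70). TLR2, which senses Gram-positive lipoproteins, had 158 and 90 counts at 10 h, a ratio of levels of 1.03 (95% exact interval 0.791 to 1.35). TLR4 had 0 counts in all 9 libraries.

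Lists of cell function held 0 to 3 calls each over both times. With the block within each time, 1 gene fell in each of the lists for tight junction and adhesion (CLDN3, of 25), brush border and enterocyte (SI, of 26), sterol and fatty acid synthesis (TM7SF2, of 28) and lactate and short-chain acid receptors and carriers (LDHD, of 9). SLC7A7, SLC38A3 and SLC38A4 fell of 20 amino acid carriers. Over all genes 0.469% fell and 0.447% rose in that fit. In the main fit the adjusted p was 0.703 for SLC38A4 and 0.615 for SI. RILP rose of 31 genes of lysosome and endocytosis, PRSS3 rose of 12 trypsinogens and secreted proteases, and the efflux pump ABCB1 rose of 16 drug metabolism genes outside the AhR. Over both times, 0 genes passed in that edgeR fit of 14 NRF2 targets, 16 interferon response genes, 18 genes of the ATF4 programme, 13 apoptosis regulators, 19 genes of hypoxia and glycolysis and 31 of mitosis and DNA replication.

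**Figure D4:**
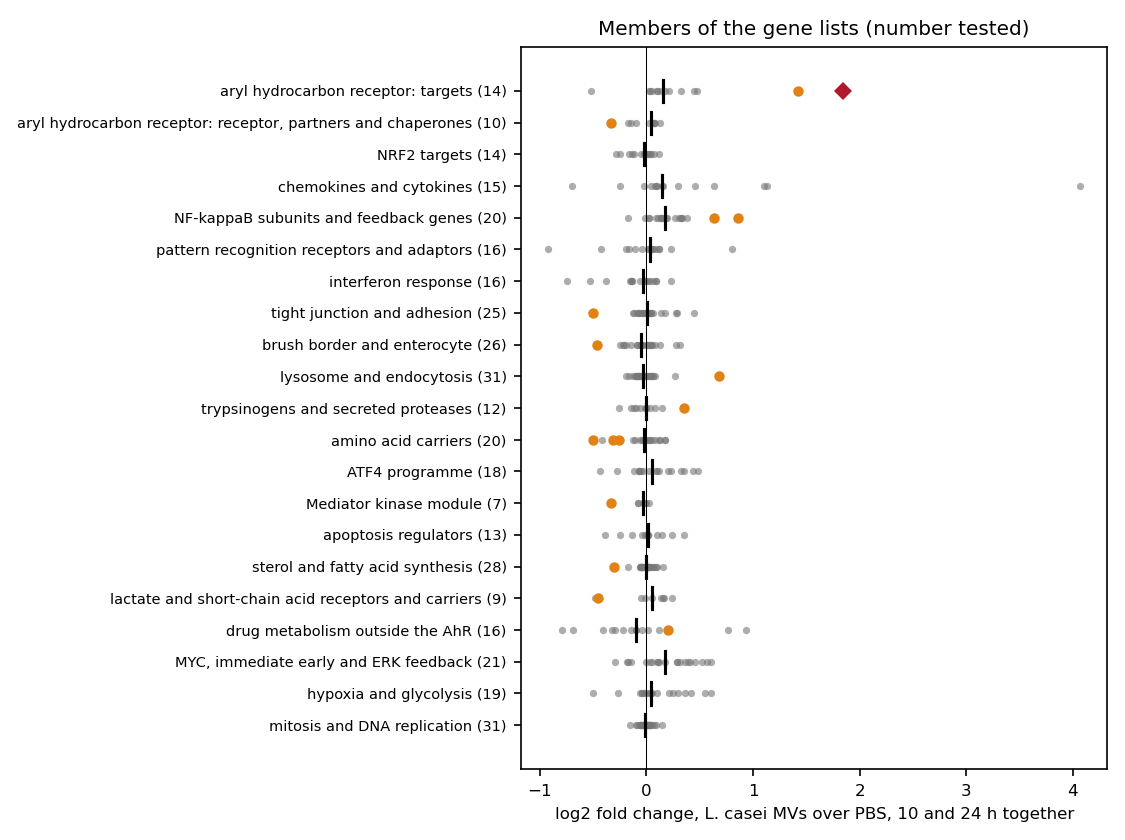
Log2 fold change of L. casei MVs over PBS (10 and 24 h together, main fit) for each tested member of 21 gene lists, with the number tested in brackets and the list median as a black bar. The red diamond is CYP1A1, past the test in the main fit, orange points passed only with the block within each time, and the lone point above 4 is CXCL5.

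Against the vesicles of the other species at the same times, CYP1A1 was again higher with L. casei MVs. It lay 2.09 ± 0.21 above E. faecalis MVs (adjusted p = 9.65e-08), which gave 60.8 and 67.6 CPM at 10 h and 16.3 and 8.72 CPM at 24 h. It lay 1.71 ± 0.19 above P. mirabilis OMVs (adjusted p = 2.45e-07), which gave 111.3, 101.02 and 89.9 CPM at 10 h and 5.68 and 13.4 CPM at 24 h. These comparisons share the L. casei libraries with the comparison to PBS. Species and vesicle number cannot be told apart here. By the study's methods, L. casei grew in a different broth from E. faecalis and P. mirabilis. Harvest time, filter pore and spin were not the same for all species either, and these differences go with species too. The study lists PBS and LPS as vesicle controls and names no preparation from unused broth. Broth compounds carried along therefore cannot be told apart from the vesicles, also against PBS.

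Relative to E. faecalis MVs 2 genes were higher and 0 lower (0.0107% of genes), and 1136 genes had an unadjusted p under 0.05. Besides CYP1A1 this was GSTP1 (chromosome 11, 67583742 to 67586656), by 0.25 ± 0.05 (adjusted p = 0.0333). This call held in 1 of 9 fits that left out 1 library, the one without L. casei MV 24 h replicate 3, and the adjusted p reached 0.500 without L. casei MV 24 h replicate 2. GSTP1 stood at 1064, 1257 and 1193 CPM with L. casei MVs and 871 and 1116 CPM with E. faecalis MVs at 10 h, which overlap, and at 1063 and 1114 CPM against 846 and 971 CPM at 24 h, which do not. With the block within each time 14 genes were higher and 22 lower (0.192% of genes, 0.0746% and 0.117%), and without a block CYP1A1 alone passed.

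Relative to P. mirabilis OMVs, whose membrane carries lipopolysaccharide, 29 genes were higher and 57 lower with L. casei MVs (0.458% of genes, 0.154% and 0.304%). With the block within each time 124 were higher and 149 lower (1.45%, 0.66% and 0.794%), and without a block the count was 11. Leaving out L. casei MV 24 h replicate 2 or 3 gave 52 or 47, and P. mirabilis OMV replicate 2 at 10 h or 24 h gave 50 or 45. The NF-kappaB list held 5 of the lower genes, RELB, TNFAIP3, SOD2, PI3 and C3, and the chemokine list held 2, CXCL10 and IL32. PI3, an elastase inhibitor of epithelium, stood at 19.0, 30.7 and 26.2 CPM with L. casei MVs and 65.4, 99.8 and 63.7 CPM with the OMVs at 10 h, a difference over both times of -1.59 ± 0.11 (adjusted p = 2.56e-18). TNFAIP3, which ends NF-kappaB signalling, differed by -0.86 ± 0.07 (adjusted p = 1.1e-15). C3 differed by -1.20 ± 0.12 (adjusted p = 1.17e-08), with 222, 246 and 251 CPM at 10 h and 215 and 254 CPM at 24 h after OMVs, all above the L. casei MV libraries. CXCL10, an interferon-inducible chemokine, differed by -2.70 ± 0.49 (adjusted p = 0.000468), at 0.194 to 0.503 CPM with L. casei MVs and 1.30 to 4.04 CPM with OMVs. EHF, OLR1, MMP1, OR2I1P and the pseudogene RPS15P4 were also among the 10 lowest, at -0.86 to -1.34. When 1 of the 10 libraries was left out in turn, RELB and MMP1 passed in 4 of 10 fits. RPS15P4 passed in 7, OLR1 in 8 and EHF in 9. The other lower genes named here passed in 10 of 10.

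Genes higher with L. casei MVs than with OMVs included DPP4 and LCT, both brush border hydrolases. LCT, the lactase, differed by 0.55 ± 0.14 (adjusted p = 0.0498) and DPP4 stood at 581, 406 and 410 CPM against 415, 319 and 322 CPM at 10 h. In PBS, DPP4 stood at 560 and 405 CPM at 10 h, and L. casei MVs differed from PBS by 0.04 ± 0.05 over both times. MEP1A (0.50), a brush border metalloprotease, SPRY4 (0.61), a feedback inhibitor of ERK signalling, HSD17B2 (0.63), ANKS4B (0.46) and MSMB (0.60) were also among the 10 highest. CASC11 (0.55) and LINC02889 (0.68) are noncoding RNAs, and DPP4-DT (0.48) is a divergent transcript at DPP4. Against PBS, L. casei MVs changed LCT by -0.22, MEP1A by -0.06 and LINC02889 by -0.13. The others named here besides DPP4 changed by 0.07 (ANKS4B) to 0.56 (CASC11), and none of these genes passed against PBS in the main fit. When 1 of the 10 libraries was left out in turn, LCT passed in 2 of 10 fits (adjusted p up to 0.369) and MEP1A in 3 of 10 (adjusted p up to 0.662). HSD17B2 passed in 1 of these 10 fits, SPRY4, MSMB and CASC11 in 3 each and LINC02889 in 4. ANKS4B passed in 7, DPP4-DT in 9 and DPP4 in 10. Of 14 other settings, LCT passed in 5 and MEP1A in 6.

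**Figure D5:**
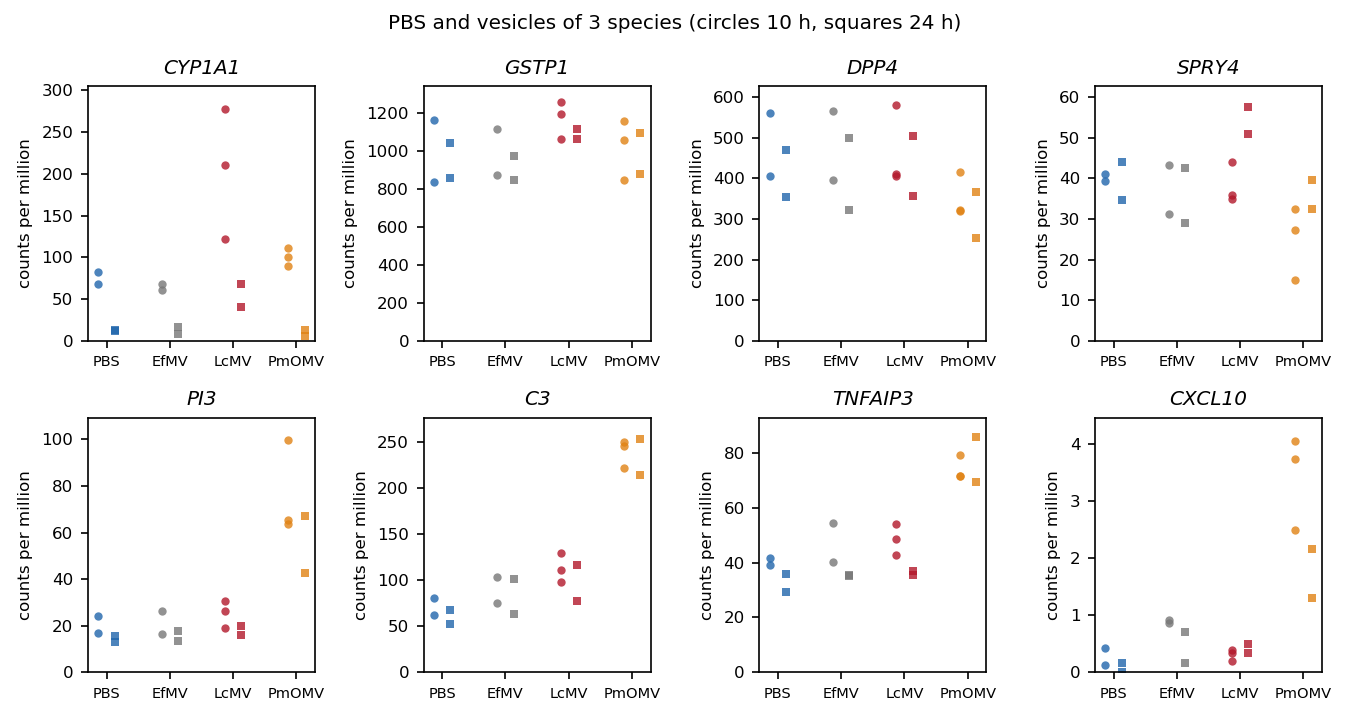
CPM of 8 genes past the test between vesicle species, in each main-fit library of PBS, E. faecalis MVs (EfMV), L. casei MVs (LcMV) and P. mirabilis OMVs (PmOMV), with 10 h as circles and 24 h as squares. CYP1A1 is highest with L. casei MVs at each time, and PI3, C3, TNFAIP3 and CXCL10 are highest with the OMVs.

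The effect of whole L. casei MVs over PBS was also set against that of transfected L. casei MV-RNA over siRNA. CYP1A1 stood at 105.1 ± 31.5 CPM (SD, n = 4) with MV-RNA and 106 ± 29.1 CPM (SD, n = 4) with siRNA at 10 h. At 24 h it stood at 12.5 ± 4.73 CPM (SD, n = 3) with MV-RNA and 7.54 ± 3.72 CPM (SD, n = 2) with siRNA. The MV-RNA library of replicate 3 at 24 h was shallow, with 1313457 counts, of which 15 were of CYP1A1 (14.4 CPM). Transcripts of the mitochondrial genome made up 30.7% of its counts, against 13.8% in replicate 2 and 11.7% in replicate 5. The MV effect exceeded the MV-RNA effect by 1.73 ± 0.32 (adjusted p = 0.0722, or 0.0468 with the block within each time). No gene passed this test in the main fit with edgeR (1288 at an unadjusted p under 0.05), DESeq2 and voom passed 1 gene each, and 26 passed with the block within each time (0.138% of genes, 8 upward or 0.0426% and 18 downward or 0.0959%). Among those 26, named after their values were seen, were SESN3 (-0.60 ± 0.22 in the main fit), CRAT (-0.47 ± 0.12), SLC38A3 (-0.65 ± 0.15), SLC7A7 (-0.25 ± 0.11) and GSTP1 (0.26 ± 0.06). The transfection reagent and the way of delivery differ between the arms and cannot be told apart from the RNA.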

How the data were processed

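Caco-2 RNA was depleted of rRNA and sequenced paired-end. The authors aligned reads to GRCh38 with STAR, removed duplicates and counted primary alignments per gene with featureCounts, for which no strand setting is stated, and deposited raw counts for 63241 genes. The deposited counts were analysed here with edgeR 4.0.16 (TMM, filterByExpr over all libraries, 18775 genes, quasi-likelihood test, Benjamini-Hochberg adjusted p under 0.05). The fit held 66 libraries in 28 groups with the replicate number as a block; 39 libraries from lanes with doubtful times were left aside. Time entered through the groups, and the joint effect is the mean of both times. CPM used TMM library sizes. DESeq2 1.42.0 and limma-voom 3.58.1 were alternatives, and the test was also run on simulated counts. The simulated replicate effects were alike at all times, so that run could not check replicate effects that differ between times. Between L. casei MVs and PBS, replicates 3 and 2 differed alike (r across genes 0.45 at 10 h and 0.57 at 24 h); each time shares only 2 numbers, and the labels give no culture behind them.

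Members, gene lists and tests were chosen with earlier results of these data known. Named genes were all genes past the test against PBS, up to 10 highest and 10 lowest in other comparisons, called and most abundant list members, all AhR genes and genes the study names; exceptions are stated, and a few items the rule names are not reported here. Total counts of 2476570 to 7144185 in the 9 MV and PBS libraries, and down to 632659 among the 66 fitted, limit precision for low genes.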

Additional observations from a re-analysis of the deposited data

Results flagged for a closer look

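SLC38A3 stood at 39.7 CPM in L. casei MV 10 h replicate 5, one of the libraries left aside, against 7.12 to 12.6 CPM in replicates 2 to 4. The gap to the nearest was 0.831 of the group's range, above Dixon's 95% critical value for 4 libraries. Of 21 sets of 4 libraries examined this was 1, and chance gives about 1 in 20.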

How the results depend on the processing

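Counts of genes past the test are given in the order both times together, 10 h, 24 h, E. faecalis MVs, P. mirabilis OMVs and MV-RNA, where the reported fit gave 1, 7, 1, 2, 86 and 0. The replicate block within each time moved them to 172, 110, 1, 36, 273 and 26, and no replicate block to 1, 0, 0, 1, 11 and 0. The libraries of all lanes gave 0, 0, 0, 0, 1 and 0 without the block and 0, 0, 0, 0, 2 and 0 with it. The compared groups alone gave 4, 168, 53, 1, 153 and 19, and terms for flow cell and lane gave 78, 33, 1, 4, 147 and 16. Replicates 2 and 3 only gave 2 together, 1 against E. faecalis MVs and 48 against P. mirabilis OMVs. DESeq2 gave 19 together, 16 at 10 h and 1 for MV-RNA, voom 4, 3 and 1. No filter gave 33 together, 24 at 10 h, 5 against E. faecalis MVs and 2 for MV-RNA, and the robust option off gave 2, 4, 1 and 1. Other settings, among them the filter on the 66 libraries, added after seeing the data, stayed within 1.5 times. The difference between times gave 0 in every setting. Leaving out 1 library gave 1 to 8 together, 0 to 6 at 10 h, 0 to 2 at 24 h, 1 to 3 against E. faecalis MVs, 45 to 85 against P. mirabilis OMVs and 0 to 3 for MV-RNA. CYP1A1 passed over both times without each of the 9 libraries in turn, and in 11 of 14 other settings. Its 24 h log2 fold change turned to -0.99 with the libraries of all lanes and to -0.61 with the block there; the part of the doubtful lanes was not tested further.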
